A study of Homo sapiens with 25 samples.

Results

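The histone marks that NB4 cells carry before any differentiating drug were mapped from the peak lists of 4 antibodies, H3K4me1, H3K4me2, H3K4me3 and H3K27ac, in cells kept for 24 h in the solvent DMSO. All peaks of the 4 lists that shared at least 1 base were merged, and each merged region was named by the combination of marks called in it. The merge gave 61990 regions, and each of the 15 possible combinations occurred. The regions were then set against the LSD1 peaks of DMSO-treated cells and the GFI1 peaks of cells that had not been treated, so that 6 of the 25 samples of the series entered the map. NB4 is a long-established line of human acute promyelocytic leukemia cells, and the series asks how the chromatin of these cells responds to an LSD1 inhibitor and to retinoic acid. Lists from drug-treated cells were not used here. Each antibody had 1 library, so no value could be set against a spread between replicates. Intervals are 95% intervals of the counts (exact binomial for shares, Newcombe for differences), cover counting error only, and treat regions as independent, which neighbouring regions need not be.

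Methyl groups on lysine 4 of histone H3 are laid down at enhancers and promoters: H3K4me1 is broad around both, H3K4me2 lies closer to the regulatory core, and H3K4me3 is typical of the promoters of transcribed genes. H3K27ac, an acetyl mark, is found at enhancers and promoters in an active state. LSD1 (KDM1A) is a demethylase that removes mono- and dimethyl groups from this lysine and works with the CoREST complex, and GFI1 is a zinc finger repressor of blood cells that recruits LSD1 to DNA. Which gene a region belongs to was not determined, since a gene annotation on the build of the lists, hg18, was not used here.

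The lists behind the map differed in length and in peak shape. H3K4me1 had 57630 peaks over 203 Mb, H3K27ac 32789 peaks over 127 Mb, H3K4me3 21688 peaks over 63.9 Mb and H3K4me2 40598 peaks over 56.9 Mb. H3K4me2 peaks were the narrowest of the 4, with a median of 1030 bases, against 2437 bases for H3K4me3, 2525 bases for H3K4me1 and 2787 bases for H3K27ac. LSD1 had 12562 peaks and GFI1 29601. The LSD1 list held only 24.7% of the peaks its own numbering implies and no score under 234, whereas the GFI1 list held all of its numbered peaks down to a score of 50.0, so a share of regions with LSD1 and a share with GFI1 should not be compared with each other. Read numbers behind the lists were not known, so neither was the depth.

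Most regions carried few marks, while most of the marked bases lay in regions with many. A single mark was called in 32056 regions, which were 51.7% of all regions and 25.8% of the covered bases. Pairs of marks were called in 9557 regions and 3 marks in 7220. All 4 marks were called in 13157 regions, which were 21.2% of the regions and 46.3% of the 242 Mb covered. The median width went up with the number of marks, at 1709 bases for 1 mark, 2953 for 2, 3650 for 3 and 6673 for 4. A wide region has more room for a peak of any kind, so shares were also read within bins of width.

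The commonest combination was H3K4me1 alone, the mark of broad enhancer surroundings, with 21528 regions and a median width of 1843 bases. With the 4 lists held to the 21688 best peaks each, the length of the shortest, the order turned, with 9504 regions of all 4 marks and 3567 of H3K4me1 alone. Regions with all 4 marks came next in number and were the widest, with quartiles of 4629 and 10136 bases. H3K4me1 with H3K27ac had 5889 regions (median 3467 bases), and H3K27ac alone had 5666 (median 1836 bases). The enhancer-type combination of H3K4me1, H3K4me2 and H3K27ac without H3K4me3 had 3708 regions with a median of 5080.5 bases, and its form without H3K27ac had 2779 with a median of 2359. The 3 methyl marks without H3K27ac had 3090 regions with a median of 2580.5 bases.

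Apart from H3K27ac alone, the combinations that lacked H3K4me1 covered at most 2.60 Mb each, and most were rare. H3K4me2 alone had 3087 regions with a median of only 511 bases, and H3K4me3 alone had 1775 with a median of 1175. H3K4me2 with H3K4me3 had 412 regions, H3K4me2 with H3K27ac 159, H3K4me2, H3K4me3 and H3K27ac together 102, and H3K4me3 with H3K27ac 55. The remaining pair and triple with H3K4me1 but no H3K4me2 were rare as well, with 320 regions of H3K4me1, H3K4me3 and H3K27ac and 263 of H3K4me1 with H3K4me3. H3K4me1 was thus called in 87.8% (87.3 to 88.2) of the regions with H3K4me3 and in 85.8% (85.4 to 86.2) of those with H3K4me2.

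**Figure D1:**
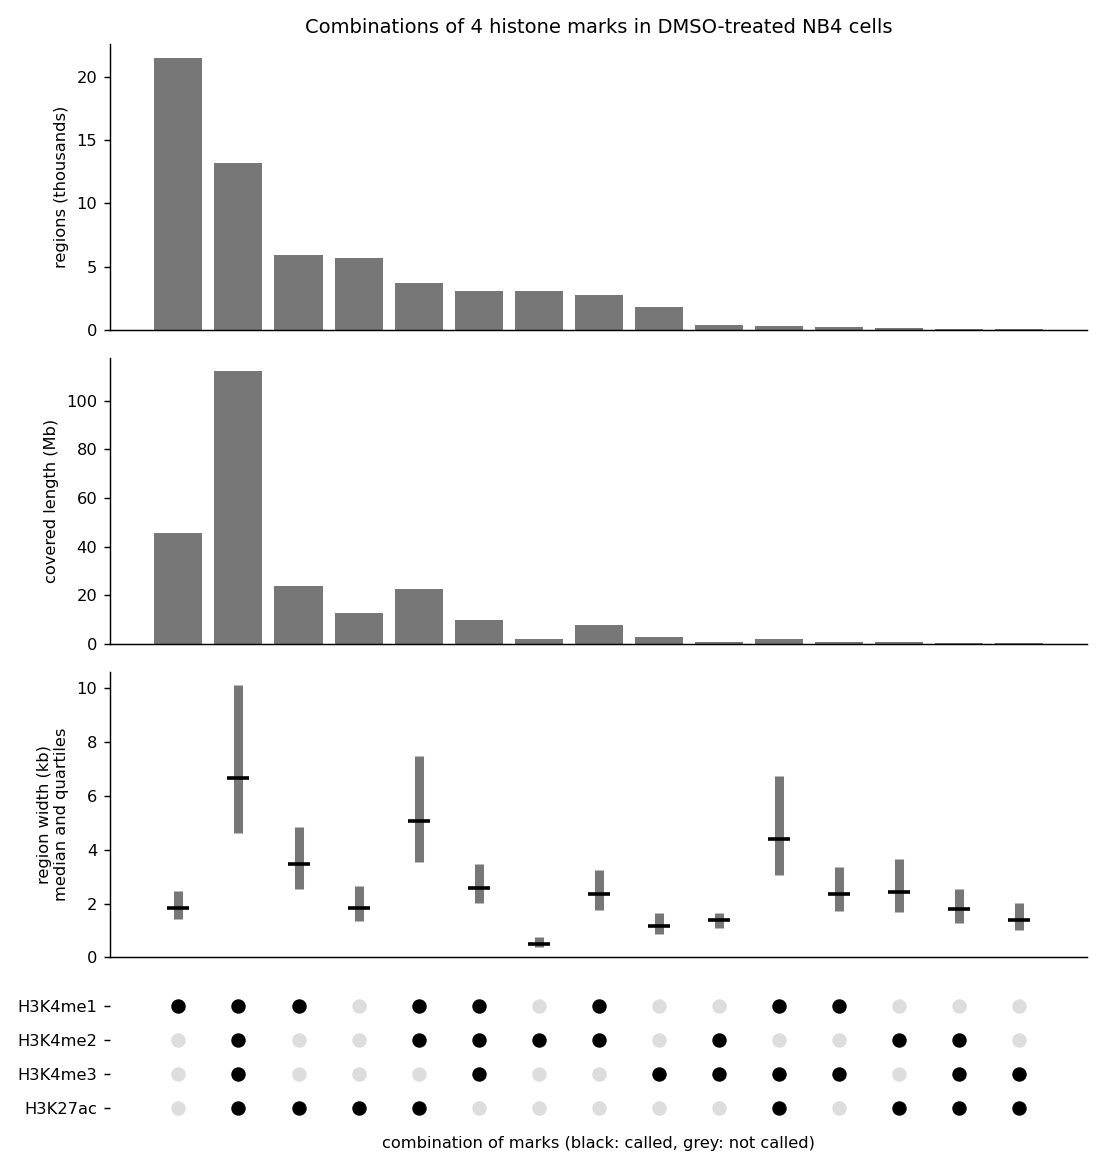
Number of merged regions (in units of 1000), covered length (Mb) and region width (kb, black line at the median and grey bar over the quartiles) for the 15 combinations, ordered by number, with black dots for the marks called. H3K4me1 alone leads in number with 21528 regions, whereas the 13157 regions with all 4 marks lead in covered length with 112 Mb and in width.

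Peak scores, which are the authors' values on the caller's scale of 10 times the negative log10 of the p-value, showed that a mark found alone was a weak call. The best H3K4me1 peak of a region had a median score of 1005 in regions with all 4 marks and 117 in regions with H3K4me1 alone. For H3K4me3 the medians were 2980 with all 4 marks and 70.6 where it stood alone, and for H3K27ac 1052 and 76.5. H3K4me2 showed the same order, at 2839 with all 4 marks and 84.6 alone. Only 25.3% of the H3K4me3-only regions, 30.4% of the H3K27ac-only regions and 43.6% of the H3K4me2-only regions had a score of 100 or more, against 57.9% of the H3K4me1-only regions. Scores pile up at 3100, so that the strongest peaks are not ranked among themselves.

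LSD1 lay at 16.5% of all merged regions, GFI1 at 20.4% and both at 10.6%. Regions with all 4 marks stood far above this background. LSD1 was found at 47.6% of them (46.7 to 48.4), against 8.17% (7.93 to 8.42) of all other regions, a difference of 39.4 percentage points (38.5 to 40.3). GFI1 was found at 45.3% of them (44.5 to 46.2), against 13.7% (13.39 to 14.002) of the others, a difference of 31.6 points (30.7 to 32.5). These shares were 38.9% and 31.8% when every histone peak was shortened to 500 bases on each flank of its centre, where combinations without H3K4me1 stood higher for both factors. These 13157 regions held 61.1% of all regions with LSD1 and 47.1% of all regions with GFI1.

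Among the combinations with at least 100 regions, the next in order were the enhancer-type regions with H3K4me1, H3K4me2 and H3K27ac, where LSD1 was found at 33.9% (32.4 to 35.5) and GFI1 at 31.7% (30.2 to 33.2). Where only peaks with a score of 100 or more were kept in every list, these regions stood slightly above those with all 4 marks in LSD1, at 50.2%, against 48.3%. The rare triple of H3K4me1, H3K4me3 and H3K27ac had LSD1 at 23.8% (19.2 to 28.8) and GFI1 at 27.2% (22.4 to 32.4). The 3 methyl marks without H3K27ac had LSD1 at 19.7% (18.3 to 21.2) and GFI1 at 26.96% (25.4 to 28.6). H3K4me1 with H3K4me2 had LSD1 at 17.7% (16.3 to 19.2) and GFI1 at 24.7% (23.1 to 26.4). H3K4me3 thus went with little difference on unacetylated H3K4me1 with H3K4me2: LSD1 was higher with it by 2.01 points (0.00355 to 3.995), and the GFI1 difference of 2.24 points (-0.00825 to 4.47) had an interval that included 0.

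All other combinations lay below the 16.5% of all regions that had LSD1. H3K4me1 with H3K27ac had LSD1 at 10.1% (9.30 to 10.8) and GFI1 at 16.9% (15.95 to 17.9). H3K4me1 with H3K4me3 had LSD1 at 6.08% (3.52 to 9.69) and GFI1 at 15.97% (11.8 to 20.97). H3K4me1 alone, the largest class, had LSD1 at 3.87% (3.62 to 4.14) and GFI1 at 10.8% (10.4 to 11.2). Regions with H3K4me1 but without H3K4me2 thus held less LSD1 than the background unless both H3K4me3 and H3K27ac were present. The LSD1 share of H3K4me1 alone depended on the lists, and was 21.8% with lists of equal length and 7.10% with shortened peaks.

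H3K27ac without any methyl mark had little LSD1. Of its 5666 regions, 40 overlapped an LSD1 peak, a share of 0.706% (0.505 to 0.960), and 229 overlapped a GFI1 peak (4.04%, 3.54 to 4.59). H3K4me3 alone had LSD1 at 1.07% (0.646 to 1.67) and GFI1 at 6.08% (5.02 to 7.30), and H3K4me2 alone had LSD1 at 1.199% (0.845 to 1.65) and GFI1 at 4.31% (3.62 to 5.09). In H3K4me2 with H3K4me3 the shares were 1.21% (0.395 to 2.81) for LSD1 and 5.58% (3.57 to 8.26) for GFI1. In H3K4me2 with H3K27ac they were 3.14% (1.03 to 7.19) and 6.29% (3.06 to 11.3), and in H3K4me2, H3K4me3 and H3K27ac they were 6.86% (2.80 to 13.6) and 17.6% (10.8 to 26.5). The low shares depended on the processing: LSD1 in H3K27ac alone was at 4.02% with lists of equal length and 7.998% with shortened peaks, in H3K4me2 alone at 5.38% and 21.4%, and in H3K4me2 with H3K4me3 at 9.96% and 45.9%.

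A small class broke the pattern for GFI1. The 55 regions with H3K4me3 and H3K27ac but neither H3K4me1 nor H3K4me2 had GFI1 at 32.7% (20.7 to 46.7), above the 20.4% over all regions, whereas LSD1 was at 3.64% (0.444 to 12.5), or 2 regions. These GFI1 peaks had high scores: the 18 peaks had a median score of 243, against 72.7 over the whole GFI1 list. GFI1 was at 46.2% of the 13 regions under 1 kb and 37.0% of the 27 at 1 to 2 kb. It was at 7.14% of the 14 at 2 to 4 kb, and the 1 region at 4 to 8 kb had it. Input signal at these regions was not examined. Their density was 200 per Mb of region, against 91.8 per Mb in regions with all 4 marks. The class is short, with 0.0902 Mb in all, and it was picked out after its values were seen. With lists of equal length it had 275 regions and GFI1 at 16.7%.

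**Figure D2:**
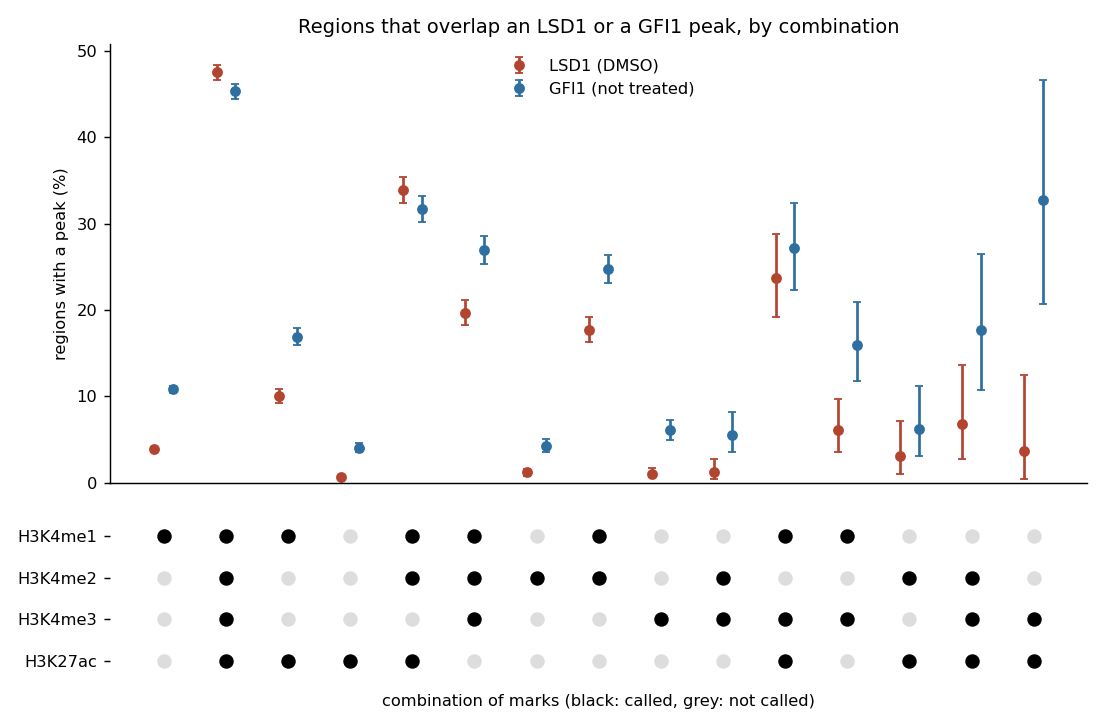
Share of regions (%) that overlap an LSD1 peak (DMSO, red) or a GFI1 peak (not treated, blue) in each combination, with 95% exact binomial intervals and black dots for the marks called. Both factors are highest in regions with all 4 marks (47.6% and 45.3%) as the lists were deposited, and LSD1 is 0.706% in regions with H3K27ac alone, while the class of H3K4me3 with H3K27ac has GFI1 at 32.7% with a wide interval.

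The shares of both factors climbed with the number of marks. LSD1 was at 2.90% of regions with 1 mark, 11.6% with 2, 27.01% with 3 and 47.6% with 4. GFI1 was at 8.73%, 18.6%, 29.3% and 45.3% in the same order. Taken mark by mark, LSD1 was at 19.98% of regions with H3K4me1 and 1.02% without it, at 32.7% with H3K4me2 and 4.45% without, at 36.5% with H3K4me3 and 7.61% without, and at 28.4% with H3K27ac and 6.11% without. H3K4me1 was called in 50734 of the 61990 regions. Nearly all regions with LSD1 carried it (98.9%), as did 95.7% of the regions with GFI1. Since marks come together, the part of each was read from pairs of combinations that differ by 1 mark, 7 pairs for each mark.

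H3K4me1 and H3K4me2, the methyl states that LSD1 can remove, were the marks whose presence went with more LSD1 in every pair and in every pair that could be read at like width. With H3K4me1 the LSD1 share was higher in all 7 pairs, by 5.01 to 40.7 points, and with H3K4me2 in all 7, by 0.143 to 23.9 points, of which 5 intervals lay above 0. Within bins of equal region width the difference stayed positive in 6 of the 6 pairs that had enough regions for H3K4me1 (1.74 to 16.04 points) and in 7 of 7 for H3K4me2 (0.150 to 16.6 points). With shortened peaks the H3K4me1 part turned in most pairs: LSD1 was higher with H3K4me1 in 3 of 7, and on H3K4me2 with H3K4me3 it was at 27.3% with H3K4me1 and 45.9% without. In the other alternatives it stayed higher in 7 of 7, and for H3K4me2 the count ran from 5 to 7 of 7 over all alternatives. Examples for H3K4me2 are the backgrounds without H3K4me3: on H3K4me1, LSD1 was at 17.7% with H3K4me2 and 3.87% without, and within width bins the difference was 11.9 points. On H3K4me1 with H3K27ac, it was at 33.9% with H3K4me2 and 10.1% without, and 16.6 points apart within width bins.

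H3K4me3 and H3K27ac also went with more LSD1 in 7 of 7 pairs each, by 0.0150 to 13.7 points and by 1.95 to 27.9 points, of which 4 and 6 intervals lay above 0. Within width bins the sign was positive in only 4 of 7 pairs for either mark. GFI1 was higher with H3K4me1 in 6 of 7 pairs and, within width bins, in 6 of 6 (1.19 to 10.9 points). The pair that went the other way, on H3K4me3 with H3K27ac (-5.54 points, -19.5 to 6.52), had too few regions for width bins. With H3K4me2 it was higher in 5 of 7 pairs and 5 of 7 within width bins, and with H3K4me3 in 7 of 7 and 5 of 7. With H3K27ac, GFI1 was higher in 7 of 7 pairs as counted, by 1.98 to 26.6 points, and higher in only 1 of 7 within width bins, where the pair was the class of 55 regions and H3K4me3 alone.

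Shares also differed strongly by width. Over all regions LSD1 was at 0.782% under 1 kb, 2.01% at 1 to 2 kb, 10.2% at 2 to 4 kb, 31.1% at 4 to 8 kb and 62.5% at 8 kb and over. GFI1 was at 3.11%, 5.75%, 16.5%, 33.5% and 63.2% in the same bins. In regions with all 4 marks LSD1 went up from 23.04% at 2 to 4 kb over 40.7% at 4 to 8 kb to 66.9% at 8 kb and over. In H3K4me1-only regions it stayed low at every width, at 6.56% at 2 to 4 kb, 8.44% at 4 to 8 kb and 5.19% (1.43 to 12.8) in the 77 regions of 8 kb and over. H3K27ac alone was lower still, at 0.751% at 2 to 4 kb and 1.67% at 4 to 8 kb. Regions of like width thus differed in LSD1 by the marks they carried.

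The reading of H3K27ac added to the same methyl marks changed with width. On H3K4me1, LSD1 was at 10.1% with H3K27ac and 3.87% without, a difference of 6.18 points (5.39 to 7.01) that became 1.49 points within width bins. On H3K4me1 with H3K4me2 it was at 33.9% with and 17.7% without, a difference of 16.2 points (14.1 to 18.3) that became -2.14 within width bins. On the 3 methyl marks it was at 47.6% with and 19.7% without, 27.9 points apart (26.2 to 29.5) and 3.35 within width bins. The differences within bins of merged width were thus smaller than those over all regions. They were not alike in every bin. On H3K4me1, LSD1 was at 15.2% (13.7 to 16.9) with H3K27ac and 8.44% (6.85 to 10.3) without at 4 to 8 kb, and at 31.7% (26.6 to 37.1) with and 5.19% (1.43 to 12.8) without at 8 kb and over. On H3K4me1 with H3K4me2 at 8 kb and over it was at 58.6% (55.1 to 62.1) with and 37.2% (22.98 to 53.3) without. On the 3 methyl marks the widest bin showed no such gap, at 66.9% (65.6 to 68.25) with and 66.7% (53.99 to 77.8) without.

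For GFI1 the same step turned the sign. GFI1 was higher with H3K27ac by 6.08 points (5.05 to 7.14) on H3K4me1, by 6.97 (4.76 to 9.15) on H3K4me1 with H3K4me2, and by 18.4 (16.6 to 20.1) on the 3 methyl marks. Within width bins the differences were -3.74, -12.2 and -7.12 points. At 4 to 8 kb, for example, H3K4me1 with H3K4me2 had GFI1 at 33.3% (31.0 to 35.6) with H3K27ac and 51.4% (46.1 to 56.6) without. Acetylated regions get part of their width from H3K27ac itself, so a second reading used bins of the bases under H3K4me1 in place of the whole width. There the GFI1 differences were 0.254, -8.07 and -5.77 points, and the LSD1 differences 3.18, 1.37 and 5.22 points.

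**Figure D3:**
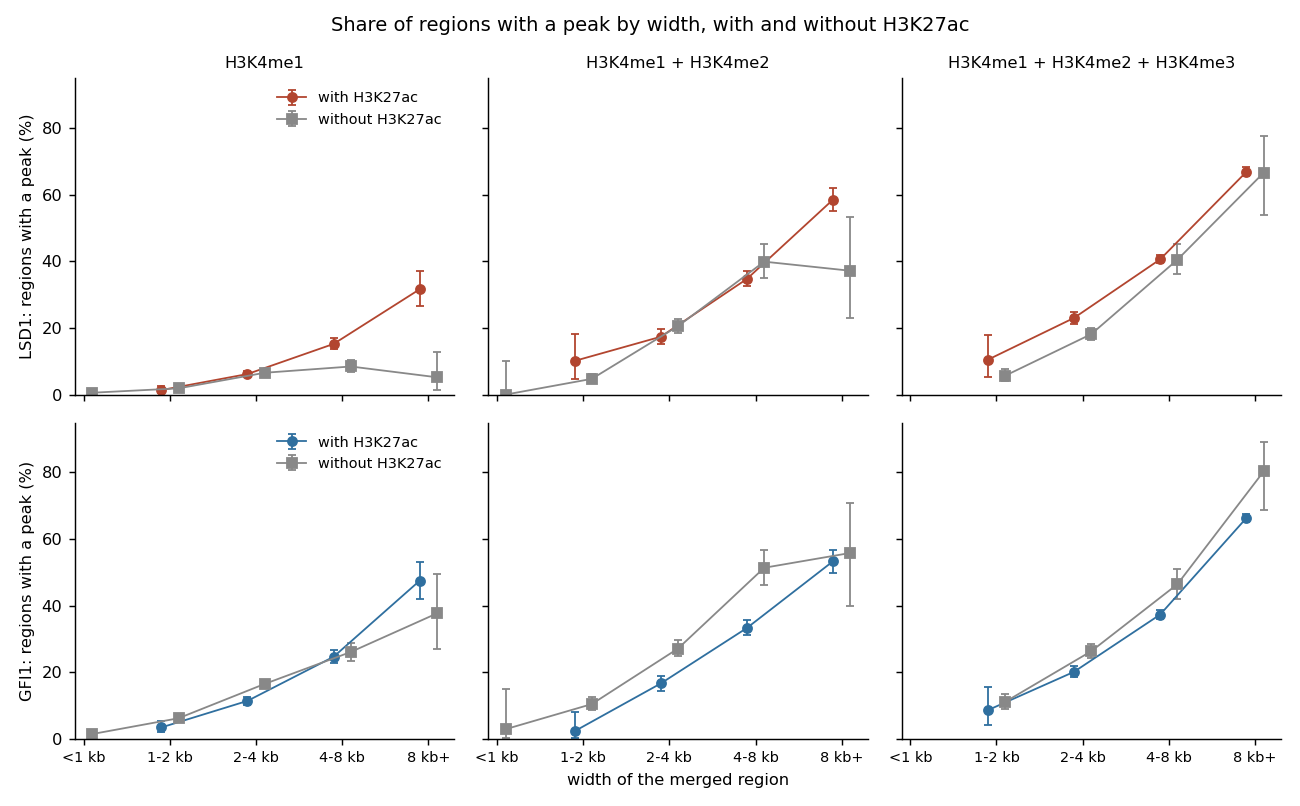
Share of regions (%) with an LSD1 peak (top) or a GFI1 peak (bottom) by width of the merged region, for regions with H3K27ac (coloured circles) and without it (grey squares) on 3 methyl backgrounds, with 95% exact binomial intervals; bins with under 20 regions are left out. Shares climb with width in most curves, and for GFI1 at 4 to 8 kb on H3K4me1 with H3K4me2 the acetylated regions lie at 33.3% and the others at 51.4%.

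H3K27ac was itself more frequent on richer methyl marks. It was called in 46.9% of all regions. Of the regions with H3K4me1 and no other methyl mark 21.5% (20.99 to 21.97) had it, of those with H3K4me1 and H3K4me2 and no H3K4me3 57.2% (55.9 to 58.4), and of those with all 3 methyl marks 81.0% (80.4 to 81.6). Without H3K4me1 it was rare over all widths, at 4.90% (4.18 to 5.70) on H3K4me2 alone and 3.01% (2.27 to 3.89) on H3K4me3 alone. On H3K4me2 with H3K4me3 it was at 19.8% (16.5 to 23.6). The shares depended on width. At 2 to 4 kb they were 27.6% on H3K4me1, 45.2% on H3K4me1 with H3K4me2 and 53.6% on the 3 methyl marks. Without H3K4me1 they were then 88.9% (79.3 to 95.1) of 72 regions on H3K4me2 alone, 6.01% on H3K4me3 alone and 41.8% on both. H3K27ac itself adds to the width, so the shares at a given width are partly set by the merge. In regions of H3K4me2 with H3K27ac it covered 96.6% of the bases. Of the 3087 regions with H3K4me2 and no other mark, only 8 were 2 to 4 kb wide.

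Regions with LSD1 were more often acetylated on each of these backgrounds with H3K4me1. With H3K4me1 as the only methyl mark, 41.5% (38.9 to 44.1) of the regions with LSD1 had H3K27ac and 20.4% (19.9 to 20.9) of those without. With H3K4me1 and H3K4me2 it was 71.9% (69.7 to 74.0) with LSD1 and 51.7% (50.3 to 53.2) without. With all 3 methyl marks it was 91.1% (90.4 to 91.8) with LSD1 and 73.6% (72.6 to 74.4) without. Regions with LSD1 were also wider in these classes, for example with a median of 8424 bases, against 5656 bases without LSD1, where all 4 marks were called. The acetylated shares come from the same counts as the LSD1 differences with and without H3K27ac given earlier. Within width bins those differences were 1.49, -2.14 and 3.35 points on these backgrounds in the same order.

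Inside the regions with all 4 marks, H3K4me1 spanned most of the length and set most outer edges, while H3K4me2 and H3K4me3 lay further in. H3K4me1 reached beyond H3K4me3 on both sides in 85.8% (85.2 to 86.4) of the 13157 regions and set 71.0% of all outer edges, while H3K27ac set 22.7%, H3K4me3 5.10% and H3K4me2 1.25%. H3K4me1 covered 90.7% of the bases of these regions, H3K27ac 66.6%, H3K4me3 47.8% and H3K4me2 38.4%. Around the centres of the 15524 H3K4me3 peaks, H3K4me2 coverage was 91.0% at the centre and 22.1% at 2000 bases to the right, while H3K4me1 coverage was 94.9% and 74.4% at these points.

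A gap in the H3K4me1 calls over H3K4me3 was found in 4436 of these regions (33.7%, 32.9 to 34.5), with a median length of 264 bases. Few H3K4me3 peak centres lay in such a gap, since H3K4me1 covered 94.9% of the 15524 centres. Whether the gaps match the loss of H3K4me1 described at strong promoters was not tested. LSD1 was found at 40.5% (39.0 to 41.9) of the regions with such a gap, against 51.2% (50.1 to 52.2) of those without it. GFI1 was found at 42.6% (41.1 to 44.0) of the regions with the gap, against 46.7% (45.7 to 47.8) of those without. The regions with the gap had a median width of 7665 bases, against 6123 bases without it, and the shares were not compared at equal width.

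In the regions with all 4 marks, LSD1 and GFI1 peak centres lay mostly where the 4 marks overlapped. Of the 7964 LSD1 peak centres in regions with all 4 marks, 70.6% (69.5 to 71.6) fell on bases where all 4 marks overlapped, which made up 28.2% of the length. Per Mb there were 154 LSD1 centres on bases under H3K4me2, against 19.4 on the other bases of the same regions. The densities were 123 per Mb on and 23.8 per Mb off H3K4me3, and 102 on and 9.09 off H3K27ac. GFI1 followed with 168 centres per Mb on and 43.2 off H3K4me2, and 121 on and 30.8 off H3K27ac.

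**Figure D4:**
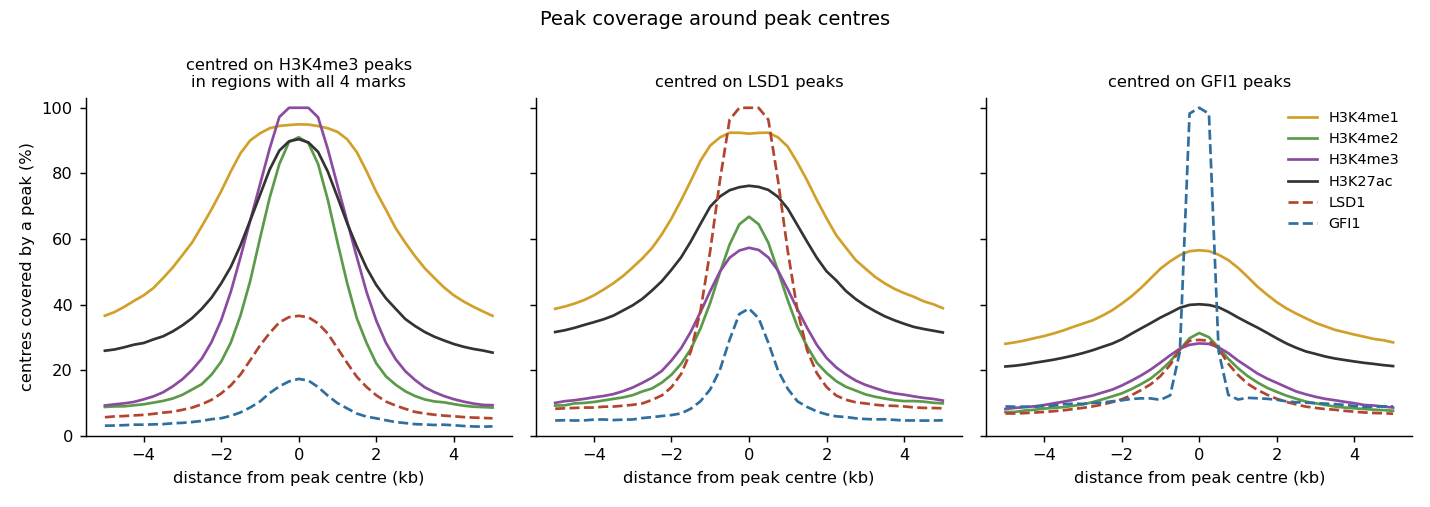
Share of peak centres (%) covered by a peak of each list at distances up to 5 kb on either side, centred on H3K4me3 peaks in regions with all 4 marks, on LSD1 peaks and on GFI1 peaks; solid lines are histone marks and dashed lines LSD1 and GFI1. At LSD1 centres H3K4me1 covers 92.1%, H3K27ac 76.2%, H3K4me2 66.8% and H3K4me3 57.3%, and at GFI1 centres the values are 56.6%, 40.1%, 31.3% and 28.2%.

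Counted base by base over the whole map, the density of LSD1 centres was highest where H3K4me2 overlapped certain other marks. It was 184 per Mb where H3K4me1, H3K4me2 and H3K27ac overlapped without H3K4me3, 177 per Mb where all 4 marks overlapped, 181 per Mb under H3K4me2, H3K4me3 and H3K27ac, and 121 per Mb under H3K4me1 with H3K4me2. Under the 3 methyl marks without H3K27ac it was 69.3 per Mb. Without H3K4me2 it was 66.4 per Mb under H3K4me1, H3K4me3 and H3K27ac, 45.8 under H3K4me3 with H3K27ac, 35.2 under H3K4me1 with H3K27ac, 15.3 under H3K4me1 alone and 2.74 under H3K27ac alone. H3K4me2 alone had 7.65 per Mb, H3K4me2 with H3K27ac 10.8 and H3K4me2 with H3K4me3 15.2. Bases under H3K4me2 were thus rich in LSD1 centres beside H3K4me1 or beside H3K4me3 with H3K27ac and poor in them elsewhere. The 69.3 per Mb under the 3 methyl marks lay close to the 66.4 under H3K4me1, H3K4me3 and H3K27ac without H3K4me2. GFI1 had 194 centres per Mb where all 4 marks overlapped, 175 under H3K4me1, H3K4me2 and H3K27ac, 169 under H3K4me1 with H3K4me2, 45.4 under H3K4me1 alone and 22.6 under H3K27ac alone. Unlike LSD1, GFI1 was nearly as dense on H3K4me1 with H3K4me2 as on the same marks with H3K27ac.

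Peaks outside the map were few for LSD1 and many for GFI1, whose lists were filtered differently, so the values describe each list and do not compare the factors. Of the LSD1 peak centres 3.81% (3.48 to 4.15) lay on a base with no mark, and of the GFI1 centres 39.5% (39.0 to 40.1). Among whole peaks, 380 LSD1 peaks (3.03%, 2.73 to 3.34) and 11191 GFI1 peaks (37.8%, 37.3 to 38.4) touched no region. The GFI1 peaks outside all regions had a median score of 64.9, against 81.3 for those inside, so that they were weaker calls on the whole. For LSD1 the medians were 356 outside and 405 inside.

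The share of GFI1 peaks that overlapped LSD1 differed with where the GFI1 peak lay. In all, 30.0% (29.5 to 30.6) of GFI1 peaks overlapped an LSD1 peak and 56.8% (55.9 to 57.7) of LSD1 peaks overlapped a GFI1 peak. In regions with all 4 marks 57.6% (56.6 to 58.5) of the GFI1 peaks overlapped LSD1, in H3K4me1, H3K4me2 and H3K27ac 48.3% (45.9 to 50.7), and in H3K4me1 with H3K4me2 47.5% (44.0 to 51.0). The share was 26.3% (23.8 to 28.9) in H3K4me1 with H3K27ac and 23.6% (22.0 to 25.3) in H3K4me1 alone. It was 5.44% (2.38 to 10.4) in H3K4me3 alone, 1.12% (0.231 to 3.24) in H3K27ac alone and 2.56% (2.27 to 2.86) outside all regions. The LSD1 shares of the regions of these listed classes ran in the same order. They were 47.6% with all 4 marks, 3.87% in H3K4me1 alone and 0.706% in H3K27ac alone. Other classes broke the order. Under the 3 methyl marks without H3K27ac, 43.9% (40.9 to 46.9) of the GFI1 peaks overlapped LSD1, although 19.7% of those regions had LSD1, against 17.7% in H3K4me1 with H3K4me2. In H3K4me1 with H3K4me3 it was 35.6% (21.9 to 51.2) of the GFI1 peaks, with LSD1 at only 6.08% of the regions. The part of the LSD1 shares in the overlap with GFI1 peaks was not tested.

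Seen from LSD1, the order differed. In regions with all 4 marks 57.0% (55.9 to 58.1) of the LSD1 peaks overlapped GFI1, against 60.3% (56.4 to 64.1) under the 3 methyl marks without H3K27ac, and these intervals overlap. In H3K4me1, H3K4me2 and H3K27ac it was 49.1% (46.5 to 51.8), against 66.6% (62.3 to 70.7) without H3K27ac. In H3K4me1 with H3K27ac it was 46.8% (42.8 to 50.9), against 69.3% (66.1 to 72.4) in H3K4me1 alone. Where H3K4me3 was absent, LSD1 peaks on acetylated H3K4me1 regions thus overlapped GFI1 less often than those on unacetylated ones, with intervals that do not overlap. Even the 380 LSD1 peaks outside all regions overlapped GFI1 in 57.9% (52.8 to 62.9).

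Several LSD1 or GFI1 peaks per region were found mainly with all 4 marks. Of those regions 9.09% had more than 1 LSD1 peak, with up to 11 in a region, and 16.8% had more than 1 GFI1 peak, with up to 24. In H3K4me1, H3K4me2 and H3K27ac more than 1 peak was found in 3.83% for LSD1 and 8.31% for GFI1. In H3K4me1-only regions it was found in 0.0418% for LSD1 and 1.02% for GFI1. The median widths of these classes were 6673, 5080.5 and 1843 bases, and the shares were not compared at equal width.

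With H3K27ac, the larger classes with H3K4me1 lay nearer to fully marked regions than without it. H3K27ac-only regions lay at a median of 13.4 kb from the nearest region with all 4 marks, and 28.7% (27.6 to 30.0) lay within 5 kb. H3K4me1 with H3K27ac lay at 19.9 kb, against 27.8 kb for H3K4me1 alone, and 23.7% (22.6 to 24.8) of them lay within 5 kb, against 18.7% (18.2 to 19.2). H3K4me1, H3K4me2 and H3K27ac lay at 20.5 kb, against 38.1 kb without H3K27ac. The 3 methyl marks without H3K27ac lay at 46.3 kb and H3K4me2 with H3K4me3 at 75.2 kb. Among the small classes, H3K4me2 with H3K27ac lay nearest, at 10.6 kb, against 55.9 kb for H3K4me2 alone. Of its 159 regions 33.3% (26.1 to 41.2) lay within 5 kb. H3K4me2, H3K4me3 and H3K27ac lay at 40.8 kb. H3K4me1, H3K4me3 and H3K27ac lay at 25.03 kb, against 30.02 kb without H3K27ac, but with fewer regions within 5 kb, at 14.7% (10.996 to 19.05), against 24.3% (19.3 to 29.98). H3K4me3 with H3K27ac lay at 113 kb, against 33.4 kb for H3K4me3 alone.

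The chromosomes differed in how many of their fully marked regions had the factors. GFI1 was found at 73.0% (69.4 to 76.3) of the regions with all 4 marks on chromosome 7 and at 69.2% (65.7 to 72.5) on chromosome 12, against 26.3% (23.4 to 29.3) on chromosome 19 and 12.8% (9.64 to 16.6) on the X chromosome. LSD1 ran from 61.0% (57.1 to 64.7) on chromosome 7 to 19.1% (15.3 to 23.4) on the X chromosome. At one width, 4 to 8 kb, the GFI1 share still ran from 61.8% (56.1 to 67.3) on chromosome 12 to 12.8% (8.40 to 18.5) on the X chromosome. Across the 23 chromosomes compared, the GFI1 share ran with the LSD1 share (Spearman rho 0.93), with the median width of the regions (0.93) and with the median score of their H3K4me1 peaks (0.86), and over the 22 autosomes these were 0.92, 0.93 and 0.84. These are descriptions over chromosomes that share the same libraries, and the part of width and of H3K4me1 score in the differences was not tested. Read counts, input signal and copy number per chromosome were not known.

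**Figure D5:**
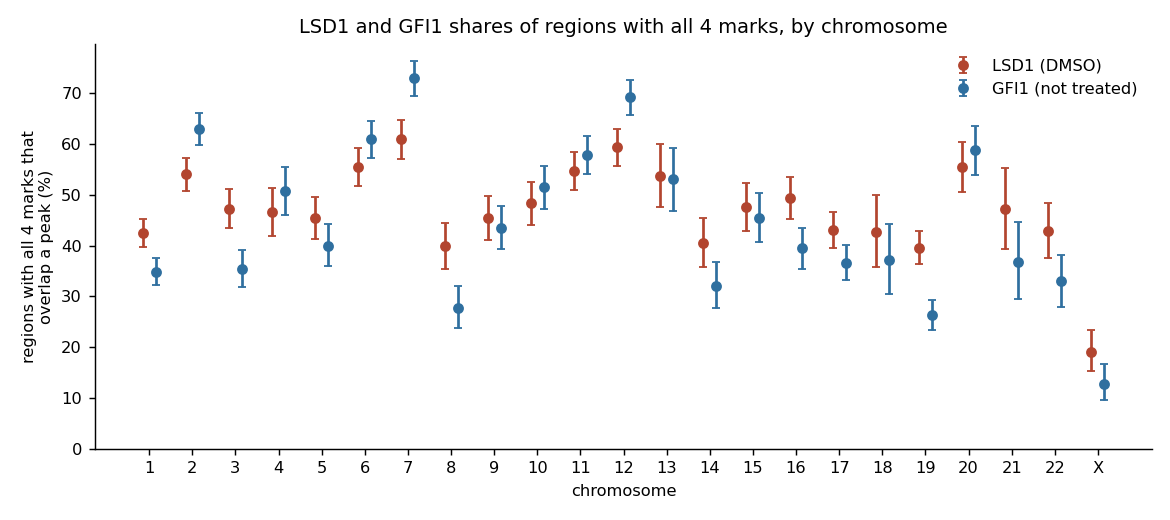
Share of regions with all 4 marks (%) that overlap an LSD1 peak (DMSO, red) or a GFI1 peak (not treated, blue) on each chromosome, with 95% exact binomial intervals. GFI1 spans 12.8% on the X chromosome to 73.0% on chromosome 7, and LSD1 spans 19.1% to 61.0% on the same chromosomes.

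Single regions show the extremes of the map, with positions on hg18. The widest of all had all 4 marks and lay at chr9:136352618-136446665, 94048 bases with 42 histone peaks, the most of any region, of which 23 were H3K4me2 peaks. It held 7 LSD1 and 8 GFI1 peaks. The widest enhancer-type region with H3K4me1, H3K4me2 and H3K27ac, at chr6:35085644-35143597, was 57954 bases long with 1 LSD1 and 6 GFI1 peaks. The widest H3K4me1-only region, at chr17:41567714-41598590, was a single peak of 30877 bases with 5 GFI1 peaks and no LSD1 peak, and the widest H3K27ac-only region, at chr15:97786363-97799082, was 12720 bases long with neither factor.

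The highest-scoring LSD1 peak in a region with all 4 marks, with a score of 3202, lay at chr10:73718602-73755961, a region of 37360 bases with 5 LSD1 and 10 GFI1 peaks. In the 3 methyl marks without H3K27ac it had a score of 3233 and lay at chr5:138024309-138028052, a region of 3744 bases with 2 GFI1 peaks. In H3K4me1 alone, 4 regions tied at 3100, and the first by position, at chr1:154332670-154334887, was 2218 bases long and held a GFI1 peak with a score of 2594 on an H3K4me1 peak with a score of 265. That H3K4me1 score lay above the upper quartile of H3K4me1-only regions (220) and below the median of regions with all 4 marks (1005). In H3K27ac alone the highest LSD1 score was 917, at chr11:63529412-63531069, without GFI1.

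Regions were also counted in windows of 100 kb, as a description with no expected number. The window with the most regions of any kind, at chr16:30400001-30500000, held 20 regions, 8 of them H3K27ac alone and 3 with all 4 marks, and a window at chr17:77900001-78000000 tied with it. H3K4me3 alone had its fullest window at chr4:400001-500000, with 15 of its 1775 regions, no LSD1 peak and 2 GFI1 peaks. For comparison, the fullest window of H3K4me1 alone held 13 of 21528 regions, and that of all 4 marks 8 of 13157.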

How the data were processed

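The series holds ChIP-seq of NB4 cells, and 6 of its 25 samples were used: H3K4me1, H3K4me2, H3K4me3, H3K27ac and LSD1 in DMSO-treated cells and GFI1 in cells not treated, grouped by antibody and treatment as labelled, with 1 library each. Per the submitters' processing notes the build was hg18 and the tools named, without role or order, were MACS 1.4.1, Bowtie 1.0.1, FastQC in versions 0.10.0 and 0.11.5, CASAVA 1.8 and bcl2fastq 2. Each deposited list gives positions and a score per peak, the authors' value on the caller's scale of 10 times the negative log10 p. Scores served for ranking and filtering inside single lists. LSD1 peaks had been filtered in a way not given in the sources used here.

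Histone peaks sharing at least 1 base were merged, and a region had LSD1 or GFI1 when a peak overlapped it by at least 1 base. SciPy 1.17.1 and NumPy 2.4.6 under Python 3.11.15 were used, with Matplotlib 3.10.9 for figures. The code was tested on simulated lists. Within-width differences used 5 bins with edges at 1, 2, 4 and 8 kb and at least 20 regions on each side, averaged with weights by size. Shares have 95% exact binomial intervals. No p-value was computed because regions do not replicate a condition, and depth is unknown. Regions were named by a rule: in each combination the widest region and the one with the highest-scoring LSD1 peak, the 5 regions with the most histone peaks and the 5 windows of 100 kb with the most regions; not all are printed, and the fullest window of a combination and the wide regions without H3K4me1 were chosen after their values were seen. The combinations, lists and tests were chosen with earlier results of these data known. Alternatives covered scores, list length, joining, peak width, cover, overlap and chromosomes. Gene names, gene lists and sequences need hg18 annotation and were not used here.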

Additional observations from a re-analysis of the deposited data

How the results depend on the processing

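No paired analysis was possible because each antibody had 1 library and no test was run. Of 388 values other than the main results recomputed under the alternatives, 199 stayed within the interval or within 1.5 times, 181 moved outside and 8 changed sign. The main results were the number of all regions, and the numbers and LSD1 and GFI1 shares of all 4 marks and of H3K4me1 only. The H3K27ac share of H3K4me1 with H3K4me2 and no H3K4me3 was also one. Their values that moved are given below. The width bins and the setting without chromosomes 2, 6, 7 and 12 were chosen after seeing the data. With each histone list held to its 21688 best peaks there were 31845 regions, 3567 of them with H3K4me1 only. H3K4me1-only regions then had LSD1 at 21.8% and GFI1 at 32.6%, regions with all 4 marks 53.4% and 50.7%, and H3K27ac lay on 71.5% of H3K4me1 with H3K4me2. With each peak cut to 500 bases left and right of its centre, 7796 regions had all 4 marks, with LSD1 at 38.9% and GFI1 at 31.8%, H3K4me1 only had 7.10% and 9.998%, and the H3K27ac share was 40.7%. Counting a mark only where it covered 25% of the region gave 5.00% and 11.9% for H3K4me1 only, 44.0% and 42.4% for all 4 marks, and an H3K27ac share of 45.0%. A minimum score of 100 also shortens the GFI1 list but not the LSD1 list, whose lowest score is 234. It gave LSD1 at 7.35% and GFI1 at 6.50% of H3K4me1-only regions and GFI1 at 23.3% of regions with all 4 marks. GFI1 was at 11.4% of H3K4me1-only regions and 46.3% of regions with all 4 marks with peaks joined within 1 kb, at 10.2% of H3K4me1-only regions when 50% of the peak had to lie inside, and at 46.3% of regions with all 4 marks on autosomes only. Without chromosomes 2, 6, 7 and 12 it was at 9.09% and 39.1%, and LSD1 was at 44.7% of regions with all 4 marks. The H3K27ac difference changed sign for LSD1 on H3K4me1 with H3K4me2 within merged width (-2.14 points). For GFI1 it changed on H3K4me1 with equal lists (-0.247) and within width (-3.74), on H3K4me1 with H3K4me2 with equal lists (-9.28), within width (-12.2) and within H3K4me1 bases (-8.07), and on the 3 methyl marks within width (-7.12) and within H3K4me1 bases (-5.77). Regions with all 4 marks led in LSD1 in the main setting, but H3K4me1, H3K4me2 and H3K27ac led at a minimum score of 100 (50.2%, against 48.3%) and with equal lists (56.6%), H3K4me2 with H3K4me3 led with the shortened peaks (45.9%), and H3K4me1, H3K4me3 and H3K27ac led at 25% cover (46.8%). In GFI1 the leaders there were H3K4me2, H3K4me3 and H3K27ac with the shortened peaks (35.1%) and H3K4me1, H3K4me3 and H3K27ac at 25% cover (43.5%). The causes were not tested.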

Other observations

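Wide acetylated regions without H3K4me1 were few, and several lay side by side. Of the 6211 regions of 8 kb or wider with H3K27ac, 48 (0.773%) had no H3K4me1 peak, and 10 of these carried both H3K4me2 and H3K4me3, where 5001 regions of that width carried those marks with H3K27ac. Of the 10, 4 lay on chromosome 6, 3 within chr13:40432085-40481952 and 2 side by side within chr12:11805515-11860879, and 1 on chromosome 2. The widest, at chr12:11805515-11847741, was 42227 bases long, with 2 H3K4me2 peaks, 1 H3K4me3 peak and 1 H3K27ac peak, and lay 7388 bases from the nearest H3K4me1 peak. At chr6:7084821-7124505 a region of 39685 bases held 12 H3K4me2 peaks, 6 H3K4me3 peaks, 4 LSD1 peaks and 10 GFI1 peaks without an H3K4me1 peak. LSD1 was found in 5 of the 10 and GFI1 in 9. The numbering of the H3K4me1 list has no missing peaks. These 10 regions were picked out after their values were seen, and what sets them apart was not tested.

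The share of GFI1 peaks that touched no region also differed by chromosome, from 22.0% to 59.0% with a median of 30.3% over 23 chromosomes. H3K4me1-only regions had GFI1 at 20.6% on chromosome 12 and at 2.22% on the X chromosome, and LSD1 at 7.64% on chromosome 19 and at 1.90% on the X chromosome. GFI1 shares of H3K4me1-only regions and of regions with all 4 marks ran together over the chromosomes (Spearman rho 0.70 over 23 and 0.66 over the 22 autosomes), which share the same GFI1 library.

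The 55 regions with H3K4me3 and H3K27ac alone had no more than 2 regions in any window of 100 kb, in 4 windows. In one of these, at chr10:41700001-41800000, there were 12 GFI1 peaks and no LSD1 peak, the most GFI1 peaks among the fullest windows of the 15 combinations. Why this window was rich in GFI1 peaks was not tested, and input signal there was not examined.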
